A study of Mus musculus with 12 samples.

Results

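The 32 genes described here are established transcriptional targets of the tumour suppressor p53, measured by RNA sequencing in newborn mouse skin epidermis. They were matched by gene symbol, and each symbol was found once among the 46078 genes of the count table. A total of 31 were counted highly enough to be tested, among 14582 genes tested. Gdf15, a secreted stress cytokine, was the exception, with 1 count over the 3 control libraries, 1 over the 3 Trp53 het libraries and 0 in the other 6.

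The series compared 4 genotypes with 3 mice each, and every mouse, controls included, carried the K14-Cre transgene, which acts in keratin 14-expressing keratinocytes and their descendants. Controls carried K14-Cre alone. The Llgl cKO group carried floxed Llgl1 and Llgl2 on both alleles, the Trp53 het group carried 1 floxed and 1 wild-type Trp53 allele, and the Llgl cKO Trp53 het group, the double mutant below, carried both changes. Other cells of the epidermal preparation, such as T cells and melanocytes, lie outside the reach of this Cre and keep their floxed alleles. Llgl1 and Llgl2 encode cortical cell polarity proteins, and the design asks how their loss, with and without 1 Trp53 allele, changes epidermal expression.

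p53 is held low in unstressed cells by the ubiquitin ligase Mdm2. After DNA damage or oncogenic stress it binds a site made of a pair of decamer half-sites and raises genes for growth arrest, apoptosis, repair and metabolic adaptation. In skin it is known for the response to ultraviolet light, and several of its targets are also driven by other factors, such as the relative p63 at Perp.

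The following stretches are shown because they carry the closest match to that binding site in the promoters of these genes. RefSeq promoters (GRCm38.p6), each 300 bases long, were at hand for 24 of the 32 genes and held a match with at most 2 mismatches for 5 of them, or 20.8%, against 2.09% of 27025 genes. The p53 site was searched by name, with 10 bases per half-site and a spacer of at most 1 base. The motif reads alike on both strands. Capitals mark the match, each with 1 mismatch, and every stretch is written 5′ to 3′ on the strand of its gene.
Cdkn1a, chr17:29090908-29090967, plus strand: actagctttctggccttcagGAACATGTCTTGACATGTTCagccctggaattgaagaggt
Ccng1, chr11:40755442-40755501, minus strand: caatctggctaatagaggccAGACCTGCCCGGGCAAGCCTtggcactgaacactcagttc
Rps27l, chr9:66946276-66946335, plus strand: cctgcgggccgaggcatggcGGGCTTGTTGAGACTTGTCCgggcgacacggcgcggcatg
Bax, chr7:45467070-45467130, minus strand: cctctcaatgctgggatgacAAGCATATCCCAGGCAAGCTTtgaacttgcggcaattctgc
Polk, chr13:96519378-96519437, minus strand: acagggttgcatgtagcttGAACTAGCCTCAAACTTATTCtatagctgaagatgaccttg
The Cdkn1a and Ccng1 stretches lay upstream of their genes and overlapped no annotated gene. The Bax stretch lay upstream of Bax within the predicted gene Gm45808, outside its exons, and a second Bax match with 2 mismatches overlapped the one shown. The Rps27l and Polk stretches lay in introns of their own genes, before internal RefSeq starts. These matches are a description of the letters, and no binding was measured.

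Library totals ran from 6738720 to 14509507 counts. Values are CPM, read counts scaled to a common library size, and a change was called where edgeR's quasi-likelihood test gave a Benjamini-Hochberg adjusted p under 0.05 over all genes tested. The labels do not say whether libraries of a group came from separate litters or preparations, so p-values measure the spread between these libraries. Of the keratinocyte markers, Krt14 lay between 3511 and 5722 CPM and Krt10 between 21730 and 45000 CPM, and 0 of 4 endothelial markers reached the level for testing. In these bulk samples, fewer cells of a type and less RNA per cell cannot be told apart.

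Trp53 itself checks the labels. Its level was 131, 109 and 123 CPM in the controls and 121, 122 and 112 CPM in the Llgl cKO libraries. It was 61.8, 60.9 and 115 CPM in the libraries labelled Trp53 het, and 98.3, 67.8 and 65.9 CPM in the double mutant libraries. The Trp53 het library numbered 3 therefore lay within the range of the groups with 2 intact Trp53 alleles and went against its label, and is called the library labelled Trp53 het 3 below. Averaged over both Llgl genotypes, the log2 difference for Trp53 was -0.61 (SE 0.16, 95% interval -0.97 to -0.25, edgeR adjusted p = 1), which did not pass the test over all genes. Mdm2, which is both the main inhibitor of p53 and one of its targets, was at 57.8 ± 11.01 CPM in controls, 57.9 ± 4.06 after Llgl loss, 54.7 ± 9.28 in Trp53 het mice and 59.5 ± 3.00 in double mutants (SD, n = 3). Llgl2 fell with its deletion, by 3.40 on the log2 scale (adjusted p = 9.54e-06), whereas Llgl1 RNA was higher in the Llgl cKO groups (0.79, SE 0.12, adjusted p = 0.00723), and the deleted exons are not given in the sources used here.

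The members spanned a wide range of levels in this tissue. Divided by exon length, Perp, a desmosomal protein first found as a p53 effector of apoptosis, had a level of 1582 CPM per kb as a mean over the 12 libraries, above 99.8% of tested genes. The cyclin-dependent kinase inhibitor Cdkn1a (p21) followed at 122 CPM per kb, then the ribosomal protein-like Rps27l at 73.7, the kinase Plk3 at 72.4 and the antiproliferative factor Btg2 at 43.5 CPM per kb. The order of Rps27l and Plk3 was within their spread, since Plk3 ranged from 35.7 to 114 CPM per kb between libraries. At the low end were the death receptors Fas (1.91 CPM per kb) and Tnfrsf10b (1.67), the ribonucleotide reductase subunit Rrm2b (0.803) and the ectodysplasin receptor Eda2r (0.303 CPM per kb). The median over all tested genes with a length was 5.26 CPM per kb.

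**Figure D1:**
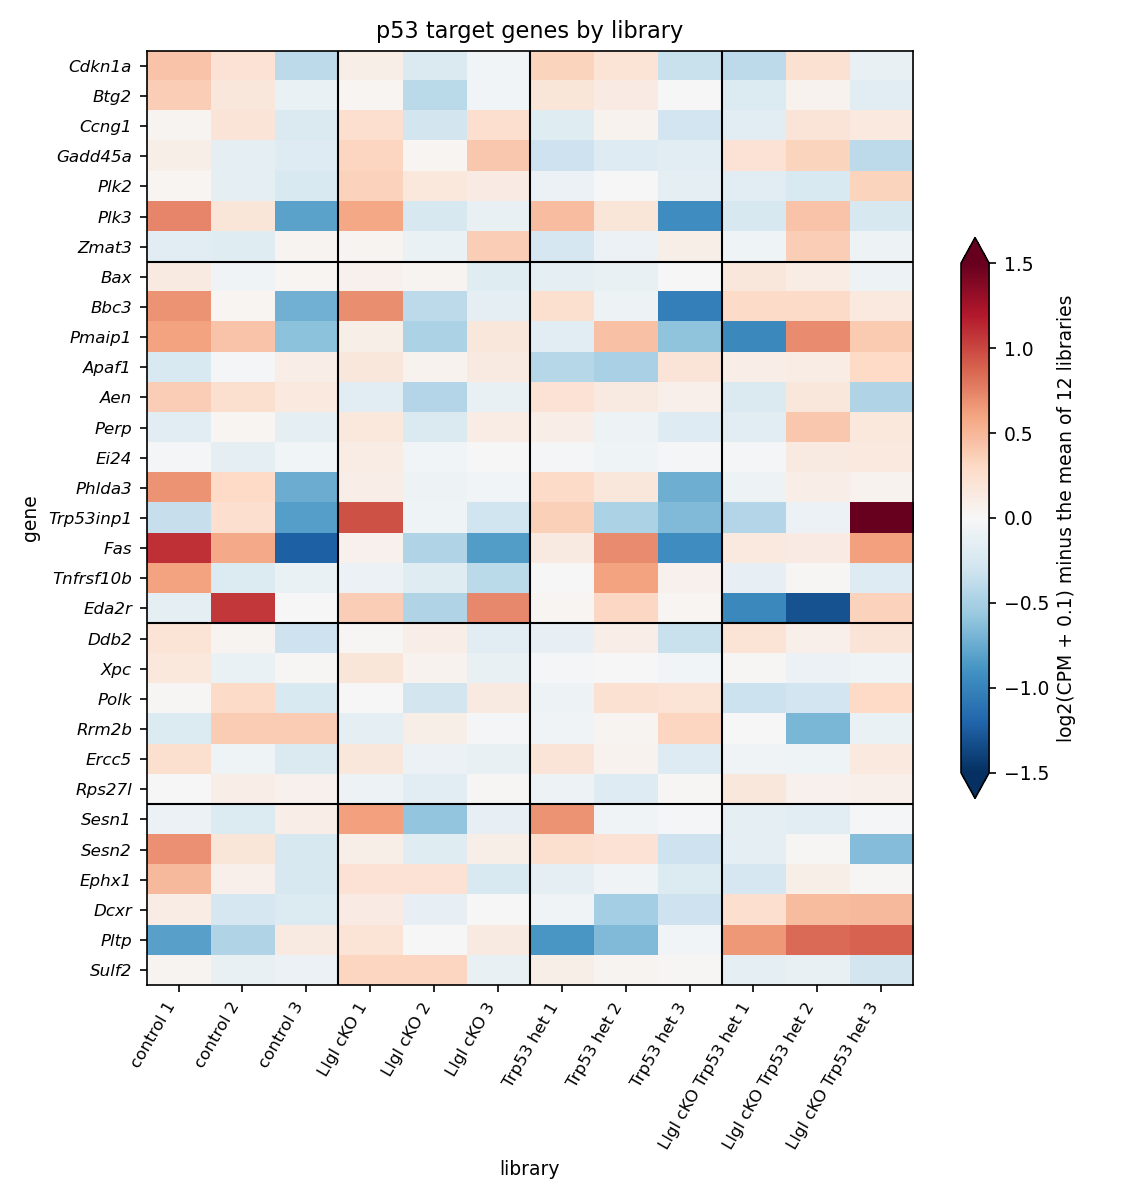
Level of each of the 31 tested members (rows, by role) in the 12 libraries (columns, by genotype), as log2(CPM + 0.1) minus the member's mean over the libraries. Control 3 and the library labelled Trp53 het 3 share low values for many members, while Pltp is highest in the 3 double mutant libraries.

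Loss of 1 Trp53 allele was not followed by a called change in any of the target genes. In the average Trp53 effect, the mean of both comparisons of heterozygous with wild-type Trp53, edgeR called 0 of 31 members, with 0 at an unadjusted p under 0.05 and 0 called by DESeq2. The background was also empty, with 0% of all tested genes called and 2.17% at an unadjusted p under 0.05. The median log2 difference of the members was -0.01, as it was over all genes tested, with 12 members higher and 19 lower. The intervals give the sizes that these libraries leave possible. For 21 of 31 members the 95% interval lay within 0.5 log2 units of no difference (57.7% of all genes), and for 28 of 31 within 1 log2 unit (85.8%), with Eda2r, Fas and Trp53inp1 wider.

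**Figure D2:**
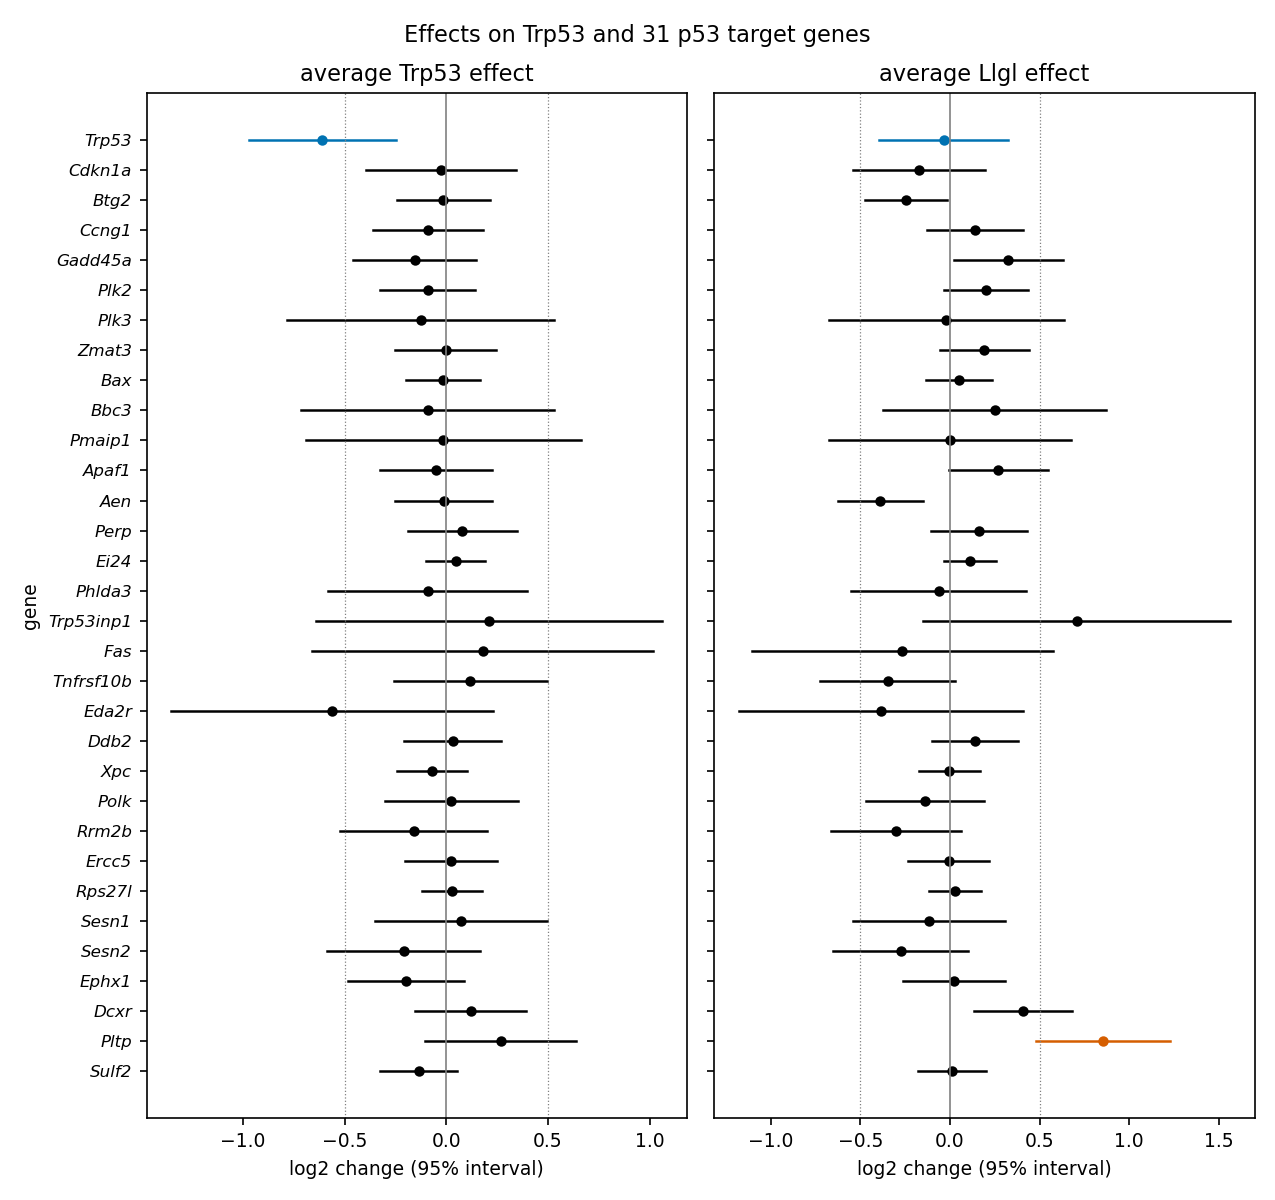
Fitted log2 differences of Trp53 (top) and the 31 tested members (points) with 95% intervals (bars) for the average Trp53 effect and the average Llgl effect, ordered by role. All members' intervals in the average Trp53 effect include 0, and Pltp is the 1 member called in the average Llgl effect, at 0.85.

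The 7 growth arrest and feedback genes (Cdkn1a, Btg2, Ccng1, Gadd45a, Plk2, Plk3 and Zmat3) had log2 differences between -0.16 and -0.003 in the average Trp53 effect, and 0 were called. Cdkn1a was at 574, 498 and 324 CPM in controls, 454, 366 and 415 in Llgl cKO, 539, 492 and 337 in Trp53 het and 324, 499 and 394 in double mutants. The 4 groups overlapped, and the lowest library of the control and of the Trp53 het group carried the number 3. Its average Trp53 difference was -0.03 (SE 0.17, 95% interval -0.39 to 0.34). Gadd45a, a stress-induced regulator of arrest and repair, was at 14.1, 11.99 and 11.6 CPM in controls, 16.6, 13.6 and 17.6 in Llgl cKO, 10.7, 11.6 and 11.9 in Trp53 het, and 15.5, 16.7 and 10.1 in double mutants. Trp53 het lay below Llgl cKO and overlapped control, the double mutant overlapped Llgl cKO, and the average Trp53 difference was -0.16 (SE 0.14, adjusted p = 1). Btg2 was at 153, 133 and 110 CPM in controls, 120, 89.0 and 115 in Llgl cKO, 134, 129 and 118 in Trp53 het, and 102, 122 and 106 in double mutants, again with overlap throughout.

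Among the 12 apoptosis and death receptor genes, 5 were higher and 7 lower in the average Trp53 effect, with a median of -0.01. Eda2r, a receptor of the TNF family, was at 1.47, 3.49 and 1.61 CPM in controls, 2.13, 1.17 and 2.73 in Llgl cKO, 1.66, 2.04 and 1.66 in Trp53 het, and 0.785, 0.598 and 2.09 in double mutants. It had the most negative average Trp53 difference of the members, -0.56, with a wide interval of -1.35 to 0.23. The BH3-only killers Bbc3 (Puma) and Pmaip1 (Noxa) had differences of -0.09 (SE 0.28) and -0.01 (SE 0.31), and the pore-forming Bax had -0.02 with a narrow SE of 0.08. Trp53inp1, a cofactor in p53-driven death and autophagy, ranged from 41.8 to 232 CPM, and its highest library was double mutant 3.

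The 6 repair and nucleotide supply genes had small differences, with 4 higher, 2 lower and a median of 0.03. Their average Trp53 differences ran from -0.16 for Rrm2b to 0.03 for Ddb2, the damaged DNA sensor of nucleotide excision repair. Xpc, its partner in damage recognition, lay between 30.3 and 37.0 CPM in all 12 libraries.

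Of the 7 genes of stress metabolism, lipid handling and secreted products, 6 were tested, with 3 higher and 3 lower in the average Trp53 effect. Ephx1, a detoxifying epoxide hydrolase, was at 53.6, 40.3 and 32.4 CPM in controls, 44.4, 44.3 and 32.7 in Llgl cKO, 34.4, 36.9 and 33.1 in Trp53 het, and 32.1, 40.7 and 38.8 in double mutants. The groups overlapped, and the average Trp53 difference was -0.20 (SE 0.13). Sesn2, a leucine sensor that restrains mTORC1, was at 69.5, 49.2 and 36.4 CPM in controls, 46.0, 38.2 and 45.8 in Llgl cKO, 51.1, 50.3 and 34.9 in Trp53 het, and 39.5, 43.6 and 27.5 in double mutants. Its average Trp53 difference was -0.21 (SE 0.17), within the spread of the overlapping groups.

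The direct comparison of Trp53 het with control gave 0 called members by edgeR, 0 at an unadjusted p under 0.05 and 0 by DESeq2. Over all genes 0% were called and 0.432% had an unadjusted p under 0.05. The members' median was -0.11, against -0.01 over all genes, with 10 higher and 21 lower. This median rested on single libraries, since it was 0.02 without control 1 and -0.007 without the library labelled Trp53 het 3. In no member did the groups separate, and over all genes 1.5% were higher and 1.52% lower without overlap. Same-numbered control and Trp53 het libraries deviated together, and read as pairs 7 of 31 members (Aen, Bax, Bbc3, Ccng1, Dcxr, Pltp and Rps27l) were lower in Trp53 het in all 3 pairs, where 12.3% of all genes were. Sulf2 was higher in all 3 pairs, as were 11.3% of all genes. With the pairs as a block in the fit, 0 members were called and 0 had an unadjusted p under 0.05. Leaving out both the library labelled Trp53 het 3 and double mutant 1, the heterozygous libraries with the most Trp53, gave 0 called members in the average Trp53 effect by edgeR, with 19 higher and 12 lower and 0 at an unadjusted p under 0.05. In that fit 1 gene of all was called and 4.76% had an unadjusted p under 0.05.

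Loss of Llgl1 and Llgl2 was accompanied by 1 called change, a rise of Pltp, the phospholipid transfer protein that moves lipids between lipoproteins (chromosome 2, 164839518 to 164857711, minus strand, GRCm38). It was at 26.8, 34.4 and 51.7 CPM in controls and 54.4, 46.9 and 51.7 in Llgl cKO. It was at 25.8, 29.8 and 46.0 CPM in Trp53 het and 74.4, 85.1 and 87.5 in double mutants. All 3 double mutant libraries were above all 9 others, while Llgl cKO overlapped control through control 3. In the average Llgl effect Pltp rose 1.81-fold (log2 0.85, SE 0.17, 95% interval 0.48 to 1.23, edgeR adjusted p = 0.0224). That was 1 of 31 members called, where 3.33% of all genes were called.

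The rise was called within Trp53 heterozygotes, at 2.42-fold in double mutants against Trp53 het (log2 1.28, SE 0.24, adjusted p = 0.0369), again 1 of 31 members against 1.36% of all genes. At an unadjusted p under 0.05 there were 2 members, Pltp and Dcxr, where 15.4% of all genes passed. Against control the double mutant missed the threshold (1.12, SE 0.24, edgeR adjusted p = 0.0513). There 0 members were called by edgeR, against 1.25% of all genes, and 1, Pltp, by DESeq2, against 3.88%. At an unadjusted p under 0.05 this comparison had 2 members higher and 1 lower, where 13.9% of all genes passed. Llgl cKO against control gave 0.43 (SE 0.24, adjusted p = 0.858), with 0 members called by either tool, 1 (Aen) at an unadjusted p under 0.05, against 0.226% of all genes called and 6.31% at that unadjusted p. The test of the difference between the Llgl effects on the 2 Trp53 backgrounds gave 0.85 (SE 0.34, edgeR adjusted p = 1), so a dependence of the Pltp rise on Trp53 was not shown.

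Both Pltp calls lay near the threshold, and each was lost on several single omissions. Leaving out control 2, the first or second Trp53 het library, double mutant 2 or 3, or (average effect) Llgl cKO 1 or (heterozygote comparison) Llgl cKO 3 lost the call in question. The adjusted p then rose to between 0.0518 and 0.143. Over all single omissions the log2 change stayed between 0.76 and 1.00 in the average effect and between 1.11 and 1.57 in the heterozygote comparison. Pltp ran broadly with the summed level of 6 fibroblast markers. With the 5 tested markers weighted equally (mean log2 level relative to the 12 libraries), Pltp rose with them within 2 groups. These were controls (-1.76, -0.58 and 0.82) and Trp53 het (-0.81, -0.38 and 1.29). Llgl cKO libraries were at 0.62, 0.39 and -0.28. The double mutants, highest in Pltp, were at 0.46, -0.12 and 0.35, below control 3 and the library labelled Trp53 het 3. The summed level was 27.8, 57.3 and 143 CPM in controls, 209, 143 and 122 in Llgl cKO, 32.6, 34.6 and 138 in Trp53 het, and 172, 230 and 239 in double mutants. Dcn (decorin) made up 60.1 to 88.8% of it, Col3a1 and Lum were at 0 in control 1, and in the average Llgl effect edgeR called 0 of the 5 markers tested (3 higher, 2 lower, 1 at an unadjusted p under 0.05), while DESeq2 called Dcn. The part of these markers in the Pltp result was not tested.

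**Figure D3:**
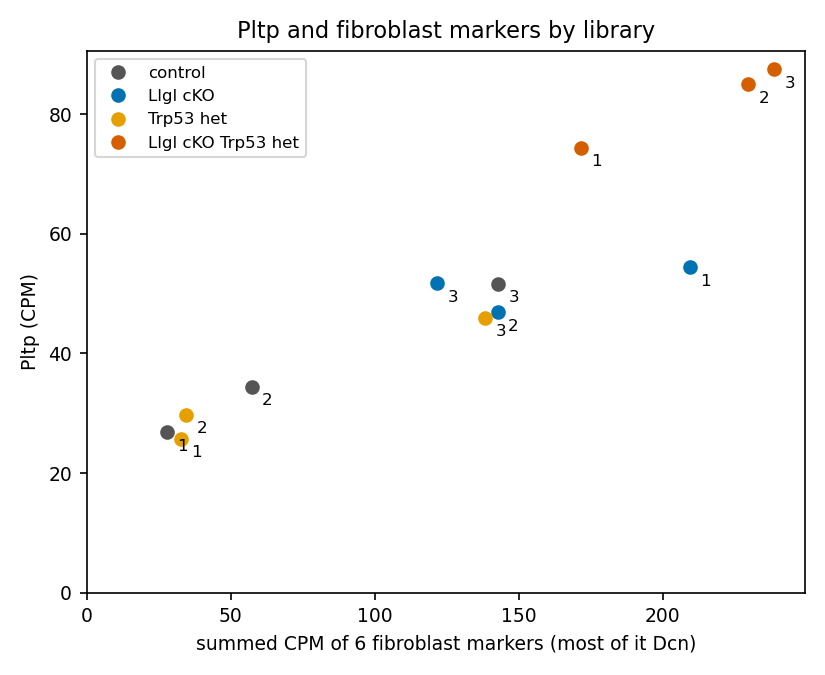
Pltp CPM (vertical axis) against the summed CPM of 6 fibroblast markers, most of it Dcn (horizontal axis), with 1 point per library, numbered by replicate and coloured by genotype. Control 3 and the library labelled Trp53 het 3 sit apart from the other libraries of their groups on both axes, and the 3 double mutant libraries have the most Pltp.

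Other members had differences after Llgl loss that did not pass edgeR's test. Dcxr, a carbonyl reductase of xylulose metabolism, was at 10.6, 8.25 and 8.46 CPM in controls, 10.7, 8.97 and 9.86 in Llgl cKO, 9.42, 6.83 and 7.90 in Trp53 het, and 11.7, 13.7 and 13.8 in double mutants. The 3 double mutant libraries were above all others. Its log2 difference was 0.69 against Trp53 het (SE 0.18, edgeR adjusted p = 0.0831, DESeq2 adjusted p = 0.0203) and 0.41 in the average Llgl effect (adjusted p = 0.108). Aen, an apoptosis-enhancing nuclease, was at 61.5, 56.3 and 52.6 CPM in controls, 42.5, 35.1 and 44.0 in Llgl cKO, 55.1, 52.3 and 50.2 in Trp53 het, and 40.9, 53.3 and 34.8 in double mutants. Llgl cKO lay wholly below control, and in the double mutant only the second library reached the Trp53 het range. The average Llgl difference of Aen was -0.39 (SE 0.11, edgeR adjusted p = 0.0792, DESeq2 adjusted p = 0.0329). Apaf1, the apoptosome scaffold, was at 17.3, 19.8 and 21.7 CPM in controls, 22.9, 20.99 and 22.2 in Llgl cKO, 15.1, 14.4 and 23.3 in Trp53 het, and 21.7, 22.0 and 25.0 in double mutants. It overlapped between genotypes through the control and Trp53 het libraries numbered 3, and its average Llgl difference was 0.27 (SE 0.13, adjusted p = 0.288). For Gadd45a and Btg2 the average Llgl differences were 0.33 (SE 0.14, adjusted p = 0.237) and -0.24 (SE 0.10, adjusted p = 0.241).

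Over the list, the average Llgl effect had a median of 0.01, with 16 members higher and 15 lower. By role the medians were 0.14 for growth arrest and feedback, 0.02 for apoptosis and death receptors, -0.01 for repair and 0.02 for the metabolic and secreted group. At an unadjusted p under 0.05 there were 3 members higher and 2 lower, 5 of 31, where 18.2% of all genes passed. In no member did all 6 Llgl cKO libraries lie apart from all 6 with intact Llgl (1.29% of all genes higher and 1.21% lower). Beside this, 6 of 8 tested markers of hair shaft and inner root sheath were called lower in the average Llgl effect (median -2.89). So were 2 of 7 T cell markers, 1 of 6 suprabasal keratinocyte markers (Ivl) and the 2 adipocyte markers tested of 5 (Fabp4 and Retn, median -3.39). Over all genes 3.33% were called. The summed adipocyte level was low, at 2.02 to 29.1 CPM in controls and 2.86 to 17.5 in Trp53 het. It was 1.67 to 3.57 CPM in Llgl cKO and 0.335 to 0.769 in double mutants. The hair markers' median was -1.40 in Llgl cKO against control (0 called) and -4.41 in the double mutant against control (6 called). In the average Trp53 effect it was -1.49, with 0 called by edgeR. There 7 of 8 had an unadjusted p under 0.05, against 2.17% of all genes. The part of these cell types in the members' values was not tested.

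**Figure D4:**
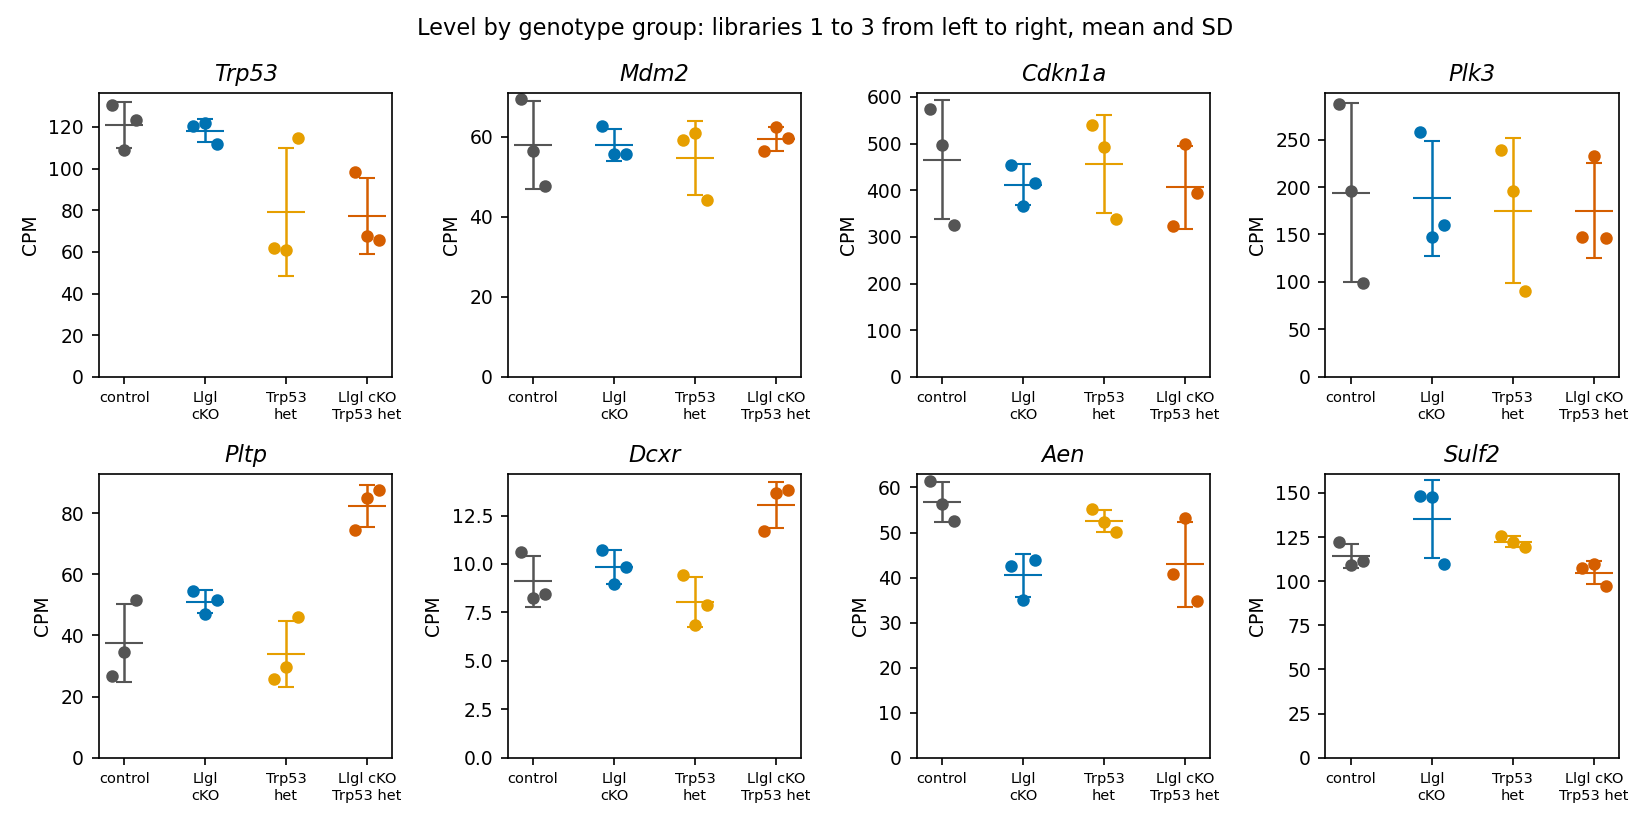
CPM of Trp53, Mdm2 and 6 members in each library (points) by genotype, with the group mean and SD (bars), n = 3. Pltp and Dcxr are highest in all 3 Llgl cKO Trp53 het libraries, whereas the Cdkn1a groups overlap.

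Adding loss of 1 Trp53 allele on top of Llgl loss called 0 members by edgeR, against 0% of all genes, and 0 by DESeq2, which called 0.342% of all genes. At an unadjusted p under 0.05 by edgeR there were 2 members higher, Pltp and Dcxr, and 1 lower, Sulf2, where 5.12% of all genes passed. Sulf2, an extracellular heparan sulfate 6-O-endosulfatase, was at 122, 109 and 112 CPM in controls, 149, 148 and 110 in Llgl cKO, 126, 122 and 120 in Trp53 het, and 108, 110 and 97.4 in double mutants. The double mutant lay below both single mutants, by a small margin over Llgl cKO 3, and the difference from Llgl cKO was -0.37 (SE 0.12, adjusted p = 0.747). Dcxr, Fas, Pltp and Rps27l were higher and Sulf2 lower without overlap between these groups, 4 and 1 of 31, where 5.84% and 5.13% of all genes were.

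The interaction, the difference between the Llgl effects with and without the second Trp53 allele, called 0 members by edgeR and 0 by DESeq2, against 0% of all genes. At an unadjusted p under 0.05 it had 4 of 31 members, Pltp, Dcxr and Rps27l upward and Sulf2 downward, where 2.94% of all genes passed. For Sulf2 the interaction was -0.47 (SE 0.17, adjusted p = 1), and for Rps27l it was 0.31 (SE 0.13, adjusted p = 1). Rps27l shares much of its coding sequence with Rps27, so the split of reads between them is uncertain. Rps27 itself gave 0.42 (SE 0.25, adjusted p = 1).

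Many members differed within genotypes along a split that cut across control and Trp53 het mice. Control 3 and the library labelled Trp53 het 3 were both the lowest of the 6 libraries with intact Llgl for 14 of 31 members (45.2%, against 27.4% of all genes). They were both the highest for 3, Apaf1, Pltp and Zmat3 (9.68%, against 27.8%). The mean of the other 4 libraries was 3.48-fold that of these 2 for Fas, 2.42-fold for Plk3, 2.19-fold for Bbc3, 2.16-fold for Phlda3, an inhibitor of Akt, and 1.96-fold for Pmaip1. For Cdkn1a the ratio was 1.59, and Plk3 was at 99.0 and 90.3 CPM in these 2 libraries and between 196 and 288 in the other 4. These libraries were picked for standing apart on the whole table, and the ratios carry no test.

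**Figure D5:**
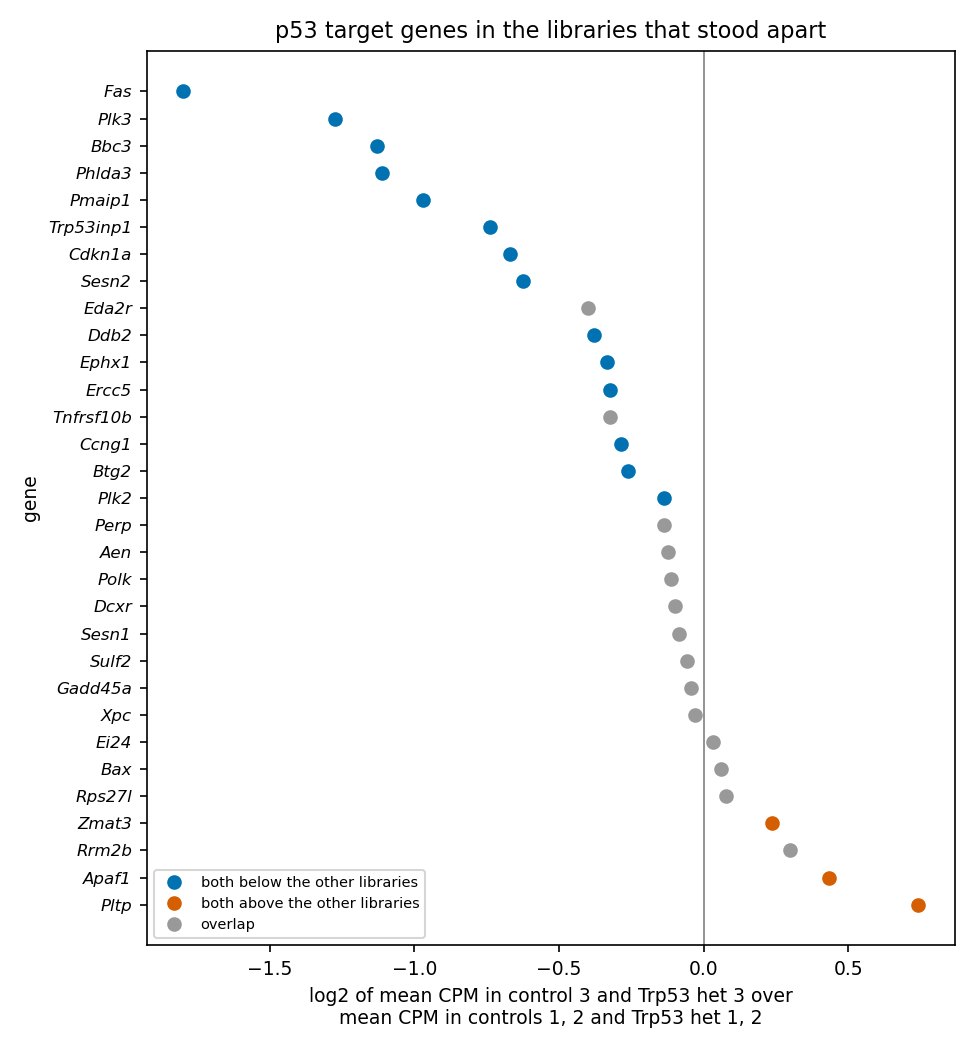
For each tested member (rows), log2 of the mean CPM in control 3 and the library labelled Trp53 het 3 over the mean in control 1, control 2, Trp53 het 1 and Trp53 het 2. Blue marks the 14 members lowest in both libraries, with Fas farthest to the left, and orange the 3 highest in both, with Pltp farthest to the right.

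The same 2 libraries had more of the cell cycle genes that p53 lowers through p21 and the DREAM repressor complex. For all 25 genes of that list these were the 2 highest of the 6 libraries with intact Llgl, and their summed level was 2010 CPM in control 3 and 2261 CPM in the library labelled Trp53 het 3. It was 371 and 554 CPM in the other controls, and 470 and 479 CPM in the other Trp53 het libraries. It ran from 1202 to 1394 CPM in Llgl cKO and from 1462 to 1786 CPM in double mutants. In hair shaft and inner root sheath, 7 of 8 markers were lowest of the 6 in these 2 libraries. So were 5 of 6 basal keratinocyte, 5 of 7 T cell, 3 of 6 macrophage and Langerhans cell, and 2 of 2 adipocyte markers. Highest in both were 4 of 5 fibroblast and 3 of 5 melanocyte markers. Suprabasal keratinocyte markers had 2 of 6 lowest and 2 of 6 highest. Over all genes 27.4% were lowest and 27.8% highest in both. The part of proliferation or cell type in the members' low values there was not tested.

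Without these 2 libraries the average Llgl effect called 4 of 31 members, Pltp (1.15), Apaf1 (0.44), Aen (-0.43) and Phlda3 (-0.35). Over all genes 2334 were called, or 15.8%. At an unadjusted p under 0.05 there were 11 of 31 members, where 30.6% of all genes passed. Among libraries with intact Llgl, Pltp and Apaf1 were highest and Phlda3 lowest in the 2 left out. The omission by itself therefore moves the differences of these genes the way they were called. The average Trp53 effect still called 0 members by edgeR, with 1 of 31 at an unadjusted p under 0.05, where 2 genes of all were called and 3.03% had an unadjusted p under 0.05. Within genotypes, the SD of log2 CPM had a median of 0.23 over members and 0.27 over all genes, and it was widest for Fas (0.77) and Trp53inp1 (0.75) and narrowest for Ei24 (0.072), an endoplasmic reticulum protein of autophagy.

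Other genes of the pathway were read from separate lists. In the average Trp53 effect 0 of 21 tested regulators and paralogues of p53, 0 of 43 further p53 targets and 0 of 25 DREAM-route genes were called by edgeR or by DESeq2. At an unadjusted p under 0.05 there were 1, 0 and 0, the 1 being Trp53, where 2.17% of all genes passed. Beside Trp53, the regulators with the smallest p were Mdm4 (-0.14) and the kinase Rps6ka3 (-0.13). Among the further targets they were Polh (0.19), Steap3 (-0.32) and Thbs1 (0.33). The DREAM-route genes had a median of 0.24, with 22 higher and 3 lower, where 47.2% of all genes were higher. Among them Kif23 (0.32), Cdc20 (0.29) and Prc1 (0.31) had the smallest p. Of the genes commonly used as references these were Pgk1 (0.34), Gapdh (0.17) and Actb (-0.10), with 0 of 10 called by either tool and 0 at an unadjusted p under 0.05.

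In the average Llgl effect, 0 of 21 regulators were called by either tool, with 0 at an unadjusted p under 0.05, and Usp7 (-0.14), Trp73 (-0.21) and Ppp1r13b (-0.26) had the smallest p. Of the 43 further targets, 1 rose and 2 fell by edgeR, and DESeq2 called Thbs1 as well. Over all genes edgeR called 3.33% and DESeq2 5.83%. At an unadjusted p under 0.05 by edgeR there were 7 of 43, where 18.2% of all genes passed. Ptprv, a receptor-type tyrosine phosphatase, was at 6.21, 11.1 and 14.6 CPM in controls, 24.6, 51.7 and 37.5 in Llgl cKO, 8.68, 8.43 and 19.1 in Trp53 het, and 29.8, 22.8 and 26.0 in double mutants. All 6 Llgl cKO libraries were above the other 6, as for 1.29% of all genes, and it rose by 1.46 (SE 0.27, edgeR adjusted p = 0.0166). Polh, the DNA polymerase that bypasses ultraviolet lesions, fell by 0.59 (SE 0.12, adjusted p = 0.0218), and Igfbp3, a secreted binding protein of insulin-like growth factors, fell by 1.82 (SE 0.36, adjusted p = 0.0235). All 25 DREAM-route genes had positive differences, with a median of 0.55, where 49.6% of all genes were higher and their median was -0.003. By either tool 0 were called, with 1 (Cdc20, 0.81) at an unadjusted p under 0.05. Kif23 (0.61) and Ccnb2 (0.79) followed. The summed level of the 25 was higher in control 3 (2010 CPM) and the library labelled Trp53 het 3 (2261 CPM) than in any Llgl cKO (at most 1394) or double mutant library (at most 1786). The positive differences therefore rested on the other libraries with intact Llgl. Among the 10 reference genes edgeR called 0 and DESeq2 called Actb, which was at -0.35 (SE 0.11, edgeR adjusted p = 0.107) and had the 1 unadjusted p under 0.05, followed by Rplp0 (-0.41) and B2m (-0.29).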

How the data were processed

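Messenger RNA libraries from a stranded kit were sequenced for 12 newborn epidermis samples in 4 groups of 3. The authors deposited 1 table of raw gene counts. The submitters' processing notes name the build GRCm38, the aligner STAR, the counter featureCounts (1.6.4) and DESeq2 (2.11.40.8). The strand setting and annotation release are not given in the sources used here. If strand was ignored, antisense reads would add to a gene's count.

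Genes passing filterByExpr (minimum count 10) were scaled by TMM and tested with edgeR 4.0.16 (R 4.3.3) in 1 fit over 12 libraries with group means and 8 residual degrees of freedom. P-values were adjusted over all genes tested, in each of 8 comparisons. SEs and 95% intervals come from the same fit. DESeq2 1.42.0, other scaling, no filter, only the groups compared, a replicate block and omission of each library were alternatives, and 3 omissions or restrictions were added after seeing the data. The analysis was tested on simulated data with changes larger than any member's average Trp53 difference. It therefore does not show how often changes of the members' size would be called. Gene positions were taken from GENCODE and promoters from RefSeq.

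The members and lists were chosen with earlier results of these data known. Every member could be named, with all libraries' values for those called or among the 6 smallest p in the average Trp53 or average Llgl effect, and some others were added after their values were seen. From each pathway list the 3 smallest p in either effect were named. Same-numbered control and Trp53 het libraries deviated together (correlations 0.62, 0.21 and 0.82), which pairs them by the data only. Control and Llgl cKO libraries did so weakly (0.12, 0.069 and 0.13), and each remaining pair of groups had a negative correlation among its numbers. The biological coefficient of variation was 23.8%.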

Additional observations from a re-analysis of the deposited data

How the results depend on the processing

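The members' medians moved by less than the spread between replicates (0.159) under every alternative run, although several medians changed sign. That spread is larger than every median itself, the largest in size being -0.11, so it is a loose yardstick. Under all alternatives 0 members were called in the average Trp53 effect, Trp53 het against control, the double mutant against Llgl cKO and the interaction. DESeq2 called 115 genes of all in Llgl cKO against control. In the double mutant it called 631 against control (3.88%, 1 member), 49 against Llgl cKO and 704 against Trp53 het (4.33%, 2 members). In the average Llgl effect it called 1004 (5.83%, 2 members). Median-of-ratios scaling and no filter each called 1 member in the double mutant against control, where 1.25% and 0.548% of all genes were called. Fits of only the groups compared called 49 genes of all there and 117 against Trp53 het. With the replicate block these were 347 (2.38%) and 376 (2.58%), and 1 member (Pltp, log2 1.16, edgeR adjusted p = 0.0126) was called against control. In the paired comparison of Trp53 het with control the block called 0 members, also when fitted to these groups alone.

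Without control 3 and the library labelled Trp53 het 3, chosen after seeing the data, 413 genes of all were called in Llgl cKO against control (2.8%, 1 member) and 1 in Trp53 het against control. The double mutant then had 1139 against control (7.72%, 1 member), 1 against Llgl cKO and 1088 against Trp53 het (7.37%, 2 members). The average Llgl effect had 2334 (15.8%, 4 members) and the average Trp53 effect 2. Without the library labelled Trp53 het 3 and double mutant 1, also chosen afterwards, 1 gene was called in the average Trp53 effect, which was Trp53 itself, the gene used to choose them. That fit called 1 member in the double mutant against control, where 1.27% of all genes were called. Leaving out 1 library at a time, genes of all called ranged from 15 to 42 in Llgl cKO and 0 to 1 in Trp53 het against control, from 25 to 351, 0 to 1 and 24 to 322 in the double mutant against control, Llgl cKO and Trp53 het, and from 164 to 697 in the average Llgl effect. Members called ranged from 0 to 1 in the double mutant against control and against Trp53 het, and 0 to 2 in the average Llgl effect.

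Small differences changed sign. Over single omissions, Trp53 in the average Llgl effect (-0.03) ranged from -0.14 to 0.15, Llgl2 in the average Trp53 effect (0.05) from -0.13 to 0.15, and Mdm2 from -0.080 to 0.058 in the average Trp53 effect (-0.02) and from -0.0024 to 0.14 in the average Llgl effect (0.07). Trp53 was at 0.16 and 0.046 in the average Llgl effect without the first and second pair of libraries above, where Mdm2 was at -0.064 without the first pair and, in the average Trp53 effect, at 0.067 without the second. The cause was not tested. With 3 libraries a group, members with few counts, such as Eda2r, Fas and Gdf15, leave room for sizeable differences.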
